A study of Saccharomyces cerevisiae with 23 samples.

Results

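The proteasome is the protease that breaks down proteins tagged with ubiquitin. It has a barrel-shaped core, built from an outer alpha ring and an inner beta ring on either side, and a regulatory cap that recognises, unfolds and feeds in substrates. In budding yeast the transcription factor Rpn4 activates the genes of both. Rpn4 is itself a very short-lived substrate of the proteasome, which closes a feedback loop: when degradation slows, Rpn4 protein accumulates and subunit genes are transcribed more. RPN4 transcription in turn answers to stress and drug-resistance factors.

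The genes described here are 32 subunit genes, 14 of the core and 18 of the cap, together with RPN4. These 33 genes were chosen by name and all 33 were found, of 6256 genes on the array, through their systematic names. All 33 passed the filter on dim probes that kept 5606 genes. The subunit genes were the 7 of the alpha ring, the 7 of the beta ring, the 6 ATPases of the cap base, 4 other genes that hold the base scaffolds and ubiquitin receptors, and the 8 of the cap lid.

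Transcript levels had been measured on 2-colour Agilent arrays in BY4741a pdr5Δ, a haploid laboratory yeast that lacks the drug efflux pump gene PDR5, to ask how copper and zinc salts alter the response to a statin. Statins block the mevalonate step of sterol synthesis, at HMG-CoA reductase, and the labels do not name the one used. The 6 groups were statin with 1 mM CuSO4, statin with 2 mM ZnSO4, statin alone at 5 µg/mL, 1 mM CuSO4 alone, 2 mM ZnSO4 alone, and untreated. The medium of every culture was synthetic complete with 2% glucose, which at treatment held 0.25 mM EDTA, a metal chelator, and 0.1% DMSO, so the untreated group carried both. Statin cultures had also met the statin in their preculture, whose OD600 was 0.09 against 0.01, and were collected at about 0.4 against 0.8. The statin and these culture densities cannot be told apart in any comparison with against without statin. Each group had 3 biological samples except statin with ZnSO4, which had 2 (replicates 2 and 3), making 17 samples on 23 arrays. What separates one biological replicate from the next (a culture, a day) is not given in the labels.

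Each value is the log2 of a sample's signal over that of a pool of RNA from all 6 conditions, and a change is a difference of such ratios between groups. They are relative to the other transcripts on the array, so a change in total RNA per cell would not show. All 3 replicate numbers had a scan of their own, with 98.4 to 98.8% of spots well above background in the first, 95.7 to 97.4% in the second and 77.1 to 89.9% in the third. All 33 genes were well above background on all 23 arrays in the sample channel, and the subunit probes lay between percentiles 65.6 and 96.4 of probe signal. PDR5 was well above background on 0 of 23 arrays. Of marker genes that this strain background lacks, HIS3 was so on 0, LEU2 on 2, URA3 on 6 and MET17 on 15. The a-cell receptor gene STE2 was above background on 23 arrays at percentiles 33.2 to 61, and the alpha-cell receptor gene STE3 on 22 at percentiles 18.6 to 30.8. The other a-cell genes overlapped STE3 or lay below it: MFA1 (14.9 to 31.9), MFA2 (18.3 to 39.6), BAR1 (14.8 to 28.7) and AGA2 (1.07 to 13.7). The alpha-cell genes MF(ALPHA)1 and MF(ALPHA)2 lay at 2.06 to 18.6 and 2.03 to 5.39. These markers as a set therefore did not separate the mating types. Duplicate arrays of one RNA differed for RPN4 by at most 0.1, and for any of the 33 genes by at most 0.51 (PRE3, replicate 2 of statin with CuSO4). Over all genes that replicate stood apart from its group, so values without it are given where it mattered.

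RPN4 was higher with the statin in each metal state, while the median of the subunit genes stayed near 0. Its log2 ratios were 0.66, -0.24 and 0.33 in statin with CuSO4 (replicates 1, 2 and 3), -0.19 and 0.23 in statin with ZnSO4 (replicates 2 and 3), and 0.79, -0.03 and 0.41 in statin alone. Without statin they were -0.69, -1.13 and -0.80 in CuSO4, -0.55, -0.60 and -0.71 in ZnSO4, and -0.44, -0.51 and -0.45 in untreated cultures. All 8 statin samples, at -0.24 to 0.79, therefore lay above all 9 samples without it, at -1.13 to -0.44. RPN4 was the only one of the 33 genes for which this held, and none had all statin samples below; of all genes tested, 6.35% lay wholly above and 5.1% wholly below. In each of the 3 statin groups replicate 2 was the lowest, and replicate 2 of CuSO4 was the lowest of all 17.

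Ordered by group mean, RPN4 stood at 0.39 in statin alone, 0.25 in statin with CuSO4, 0.02 in statin with ZnSO4, -0.47 in untreated, -0.62 in ZnSO4 and -0.87 in CuSO4. Replicate 1 was missing from statin with ZnSO4. It was the highest sample of statin alone (0.79) and of statin with CuSO4 (0.66), so the statin means are not matched by replicate. Of the neighbours in that order, statin with CuSO4 against statin and ZnSO4 against untreated were compared and did not differ at an adjusted p under 0.05, with the values given below. The other neighbouring groups were not tested against each other.

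**Figure D1:**
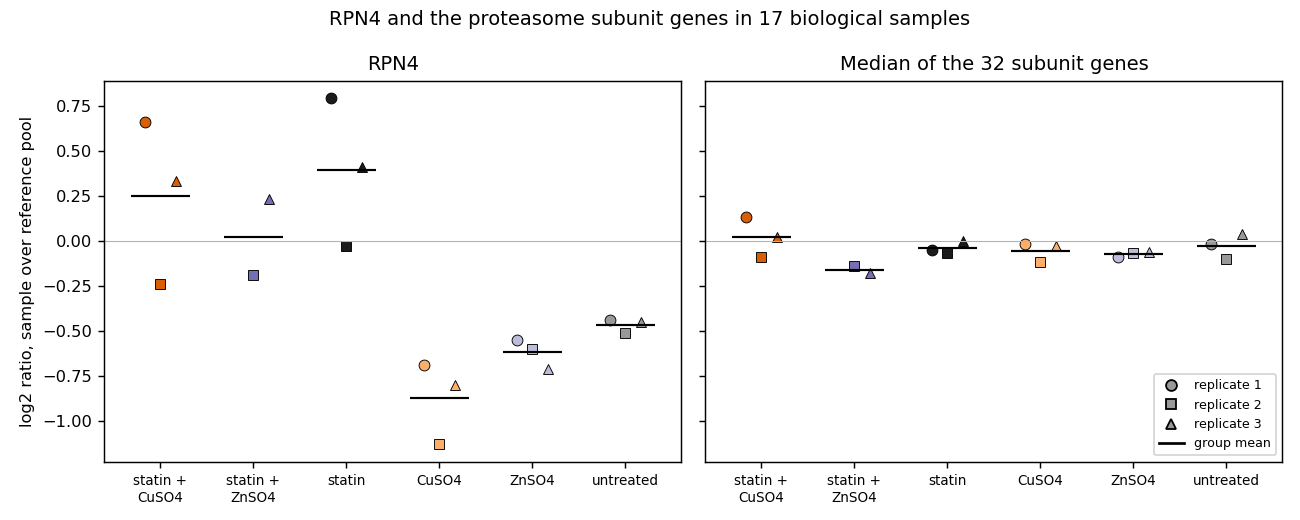
Log2 ratio over the reference pool in each of the 17 samples, by group, for RPN4 and for the median of the 32 subunit genes. RPN4 lies between -0.24 and 0.79 in the 8 statin samples and between -1.13 and -0.44 in the other 9, while the subunit median stays between -0.18 and 0.13 throughout.

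Against untreated cultures, statin alone raised RPN4 by 0.86 ± 0.22 (standard error, 1.81-fold, 95% interval 0.40 to 1.32, limma adjusted p = 0.00618). Leaving out any single sample of these groups kept the change between 0.66 and 1.07, with adjusted p up to 0.0354. Against CuSO4 alone, statin with CuSO4 raised it by 1.12 ± 0.22 (2.18-fold, adjusted p = 0.000873). Against ZnSO4 alone, statin with ZnSO4 was 0.64 ± 0.24 higher (1.56-fold, 95% interval 0.12 to 1.15), which missed the threshold at an adjusted p of 0.0611. With the scan as a block in the fit that difference was 0.75 with an adjusted p of 0.00523, and within the single scans it was 0.40 and 0.94. It also passed under median centring (0.65, adjusted p = 0.0362) and when these groups were fitted alone (0.64, adjusted p = 0.0211). Within scans the change was 1.23, 0.48 and 0.86 for statin against untreated, and 1.35, 0.89 and 1.13 for statin with CuSO4 against CuSO4. Every within-scan difference was thus upward, with the second scan the smallest each time.

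Averaged over the 3 pairs with and without statin, a comparison added after the values were seen, RPN4 rose by 0.87 ± 0.13 (1.83-fold, adjusted p = 4.87e-05). It stayed between 0.80 and 0.95 when any of the 17 samples was left out. This standard error and adjusted p treat same-numbered samples as independent, although replicate 2 was the lowest in each of the 3 statin groups. Leaving out single samples cannot show a deviation shared by a whole replicate number. Neither metal was shown to alter the response of RPN4 to the statin. The interaction, the metal's effect with statin minus its effect without, was 0.27 ± 0.31 for CuSO4 (95% interval -0.39 to 0.92, adjusted p = 0.614) and -0.22 ± 0.32 for ZnSO4 (-0.91 to 0.47, adjusted p = 0.927). Within the single scans the ZnSO4 interaction was -0.08 in replicate 2 and 0.08 in replicate 3. With the scan as a block it was -0.11 (adjusted p = 0.902).

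Of the metals alone, CuSO4 left RPN4 at -0.87 against -0.47 in untreated cultures, a difference of -0.40 ± 0.22 (95% interval -0.87 to 0.06, adjusted p = 0.165). All 3 CuSO4 samples lay below all 3 untreated ones, and the share of all genes for which this held is not given. This call turned with the model: with the scan as a block the adjusted p was 0.0423, and with these groups alone in the fit it was 0.0362. ZnSO4 differed from untreated by -0.15 (adjusted p = 0.71). With statin present, the added CuSO4 gave -0.14 (95% interval -0.60 to 0.32, adjusted p = 0.757). The added ZnSO4 gave -0.37 ± 0.24 (-0.88 to 0.15, adjusted p = 0.313), with replicate 1 missing from statin with ZnSO4. Within the single scans the added ZnSO4 gave less, at -0.16 in replicate 2 and -0.17 in replicate 3. With the scan as a block it gave -0.26 (adjusted p = 0.283). The sign of the CuSO4 value turned without replicate 1 of statin (0.06) or without replicate 2 of statin with CuSO4 (0.11).

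The subunit genes moved little in any group. The median over the 32 genes lay between -0.18 and 0.13 in every sample, single subunit values lay between -0.57 and 0.55, and the group means of the sample medians were 0.02 ± 0.11 in statin with CuSO4, -0.16 ± 0.03 in statin with ZnSO4 (n = 2), -0.04 ± 0.03 in statin, -0.06 ± 0.05 in CuSO4, -0.08 ± 0.02 in ZnSO4 and -0.03 ± 0.07 in untreated cultures (SD, n = 3 otherwise). The distance between the highest and the lowest group mean of a gene had a median of 0.338 over the subunits, against 0.612 over all genes tested. For 31 of the 32 subunits it was below the median of all genes, and for 24 below the lower quartile of 0.382. It was 1.26 for RPN4, at percentile 82.6 of all genes. The subunit probes lay at percentiles 65.6 to 96.4 of signal, and genes of like signal were not compared separately. Whether probe brightness enters these distances was not tested.

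**Figure D2:**
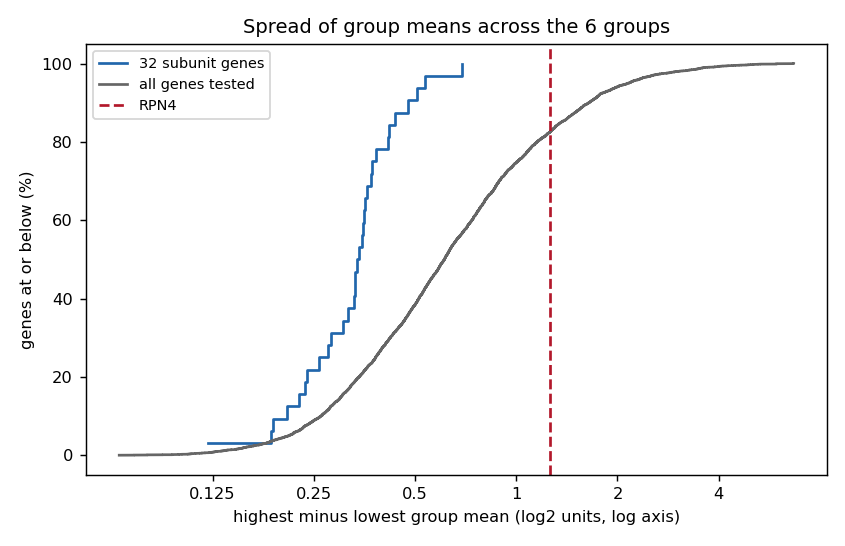
Cumulative share of genes (percent, vertical axis) by the distance between the highest and lowest of the 6 group means (log2 units on a log axis), for the 32 subunits and for all 5606 genes tested, with a dashed line at RPN4. The subunit curve runs from 0.12 (PRE3) to 0.69 (PRE1) with a median of 0.338, left of the median of 0.612 for all genes, and RPN4 stands at 1.26.

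Precision allowed moderate changes to be bounded. The 95% interval of the change lay wholly within ±0.5, a 1.41-fold difference, for 29 of 32 subunits in statin against untreated, for 27 in CuSO4 and 26 in ZnSO4 against untreated, for 29 when CuSO4 and 23 when ZnSO4 was added to the statin, for 25 with CuSO4 and 20 with ZnSO4 in statin with a metal against that metal, and for 31 in the averaged statin effect. For the others a change of that size was not bounded by these samples.

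Correlations between single subunit genes were spread widely. Over the 17 samples, the 496 pairs of subunit genes correlated with a median Pearson r of 0.135, from -0.695 to 0.887, and 306 pairs were positive. RPN4 correlated with single subunits between -0.631 (RPN8) and 0.729 (PRE2), with a median of 0.157, and with their mean at 0.271. These points share the statin split and the scans, and the values are descriptions. No such values are given for pairs of other genes, so whether these are low for genes on this array is not known.

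Statin alone against untreated changed 3 of the 33 genes, with 2 higher and 1 lower, where 36.8% of all genes tested were called. Besides RPN4 these were PRE7, a structural beta-ring subunit that rose, and RPN8, the lid partner of the deubiquitinase Rpn11, that fell. The median change over the subunits was -0.04, against -0.01 over all genes. PRE7 measured 0.33, 0.13 and 0.18 in statin cultures, against -0.05, -0.37 and -0.14 in untreated ones, without overlap. It rose by 0.40 ± 0.12 (1.32-fold, limma adjusted p = 0.0132). RPN8 measured -0.40, -0.54 and -0.56 in statin cultures, against -0.01, -0.07 and -0.22 in untreated ones, again without overlap. It fell by 0.40 ± 0.12 on the log2 scale (1.32-fold lower, adjusted p = 0.0155). Both calls were close to the threshold: PRE7 missed it without replicate 1 of statin (adjusted p = 0.0561) or replicate 2 of untreated (0.0687), and RPN8 without replicate 1 of untreated (0.0632) or replicate 3 of statin (0.056). Within each of the 3 scans PRE7 was higher (0.39, 0.51 and 0.32) and RPN8 lower (-0.39, -0.47 and -0.34).

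By role, 0 of the 7 alpha-ring genes, 1 of the 7 beta-ring genes, 0 of the 6 ATPases, 0 of the 4 scaffold and receptor genes and 1 of the 8 lid genes were called by limma in that comparison. At an unadjusted p under 0.05 the counts were 0, 1, 0, 0 and 1, and 46.6% of all genes passed that rule. Among the next largest values were RPN2, a scaffold of the base, at 0.19, and PRE1, a structural beta-ring subunit, at -0.25; neither passed the test.

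**Figure D3:**
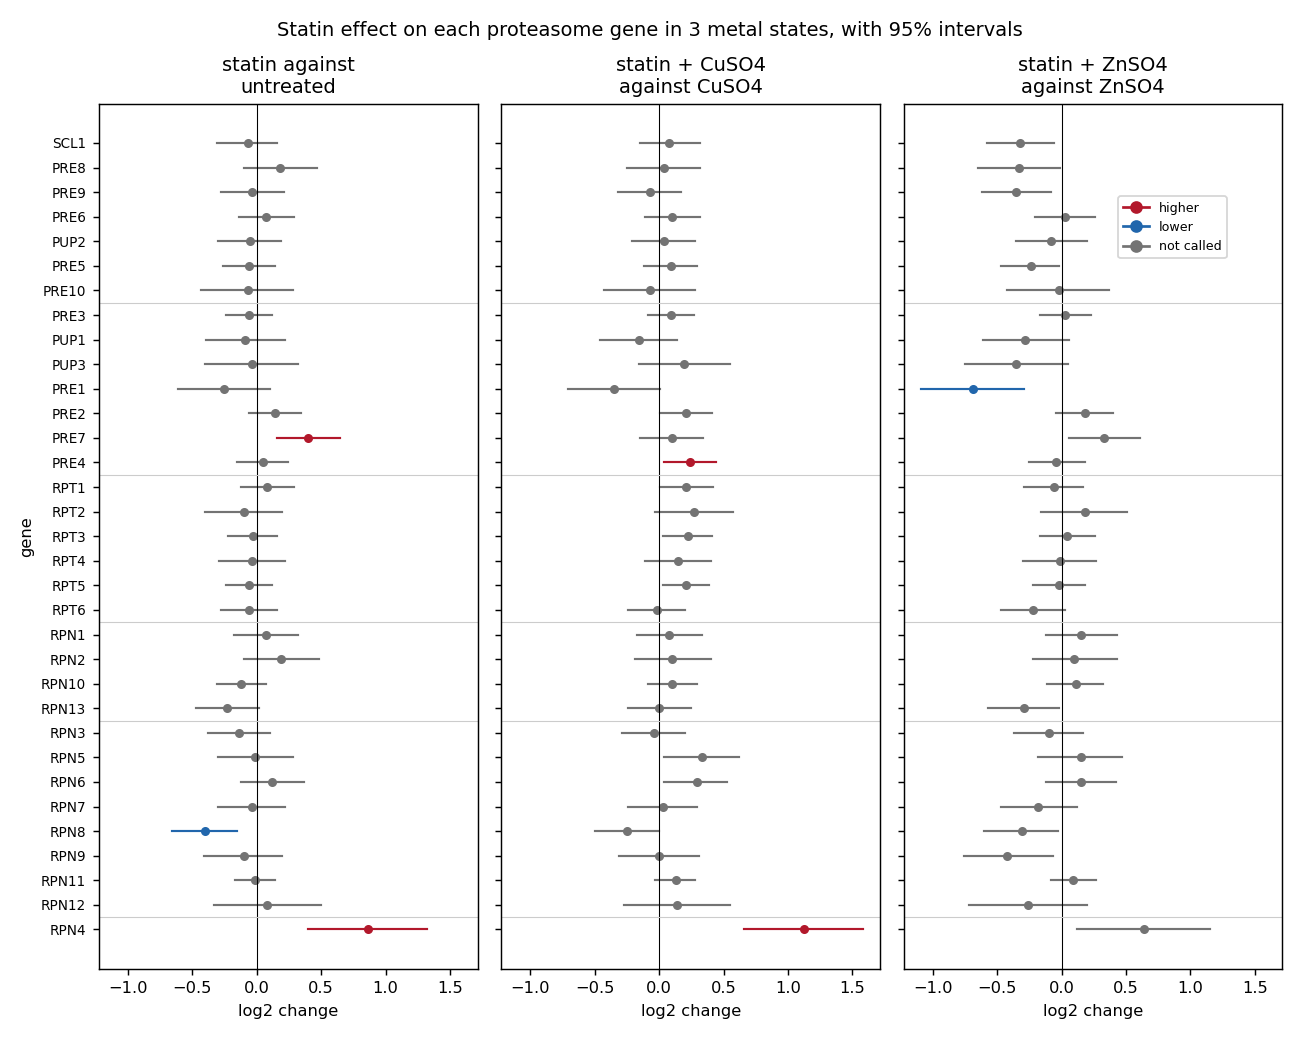
Log2 change (points) with 95% intervals (lines) for each of the 32 subunits and RPN4 in statin against untreated, statin with CuSO4 against CuSO4, and statin with ZnSO4 against ZnSO4; red marks genes called higher, blue lower and grey not called. RPN4 stands at 0.86, 1.12 and 0.64 in the 3 panels, and the subunits lie between -0.69 and 0.40.

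With CuSO4 present, the statin raised RPN4 and PRE4, a structural beta-ring subunit. These were 2 of the 33 genes higher and 0 lower, where 44.3% of all genes were called in either direction and 21.1% higher. PRE4 measured 0.33, 0.03 and 0.15 in statin with CuSO4, against -0.11, -0.04 and -0.06 in CuSO4 alone, a rise of 0.24 ± 0.09 (adjusted p = 0.0445). Replicate 1 was the highest of these samples, and without it the change was 0.16 with an adjusted p of 0.212. The call was lost without any single one of these 6 samples (adjusted p from 0.0753) other than replicate 2 of statin with CuSO4. PRE4 also missed the threshold under median centring (0.206) and when these groups were fitted alone (0.151). Without replicate 2 of statin with CuSO4 7 of the 33 were called in this comparison, where 49.4% of all genes were. With the scan as a block 8 of the 33 were called in this comparison, 7 higher and 1 lower, where 54.5% of all genes were; the added ones were the catalytic subunit gene PRE2, the ATPase genes RPT3 and RPT5 and the lid genes RPN5 and RPN6, all higher by 0.21 to 0.33, and RPN8, lower at -0.25. The subunit median was 0.09, against 0.01 for all genes.

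With ZnSO4 present, 1 of the 33 genes fell and 0 rose, where 28.6% of all genes were called and 14.2% were lower. This was PRE1, at -0.22 and -0.50 in statin with ZnSO4, against 0.55, 0.19 and 0.26 in ZnSO4 alone. The samples did not overlap, and the change was -0.69 ± 0.19 (1.62-fold lower, adjusted p = 0.0139), the lowest of any subunit in the comparisons made. It missed the threshold without replicate 1 of ZnSO4 (-0.59, adjusted p = 0.0577) or replicate 3 of statin with ZnSO4 (adjusted p = 0.147). The subunit median was -0.05, and with the scan as a block 6 of the 33 were called, 2 higher (RPN4, PRE7) and 4 lower (PRE1, RPN8, SCL1, PRE9), where 37% of all genes were.

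The 3 comparisons with against without statin use separate samples. Of the 32 subunits, 6 (PRE2, PRE6, PRE7, RPN1, RPN2 and RPN6) were above 0 in all 3 and 7 (PRE1, PRE10, PRE9, PUP1, RPN3, RPN8 and RPT6) below 0 in all 3. These shares, 18.8% and 21.9%, were below the 29.8% and 30.5% of all genes tested. In the averaged statin effect 7 of the 33 genes were called, 4 higher and 3 lower, where 56.1% of all genes were. Higher beside RPN4 were PRE7 (0.28 ± 0.07, adjusted p = 0.00341), PRE2, the chymotrypsin-like catalytic subunit (0.18 ± 0.06, adjusted p = 0.0148), and RPN6, the lid subunit that clamps onto the core (0.19 ± 0.07, adjusted p = 0.031). Lower were PRE1 (-0.43 ± 0.10, adjusted p = 0.00208), RPN8 (-0.32 ± 0.07, adjusted p = 0.00139) and RPN13, a ubiquitin receptor (-0.17 ± 0.07, adjusted p = 0.0447). RPN6 and PRE2 both dropped to 0.06 and lost their calls under median centring (adjusted p = 0.397 and 0.369), and RPN13 lost its call there too (0.0591). With single samples left out, RPN6 missed the threshold 8 times of 17 (adjusted p up to 0.0676) and RPN13 11 times (up to 0.158), while PRE1, RPN8, PRE7 and PRE2 kept theirs. The subunit median in this comparison was 0.

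**Figure D4:**
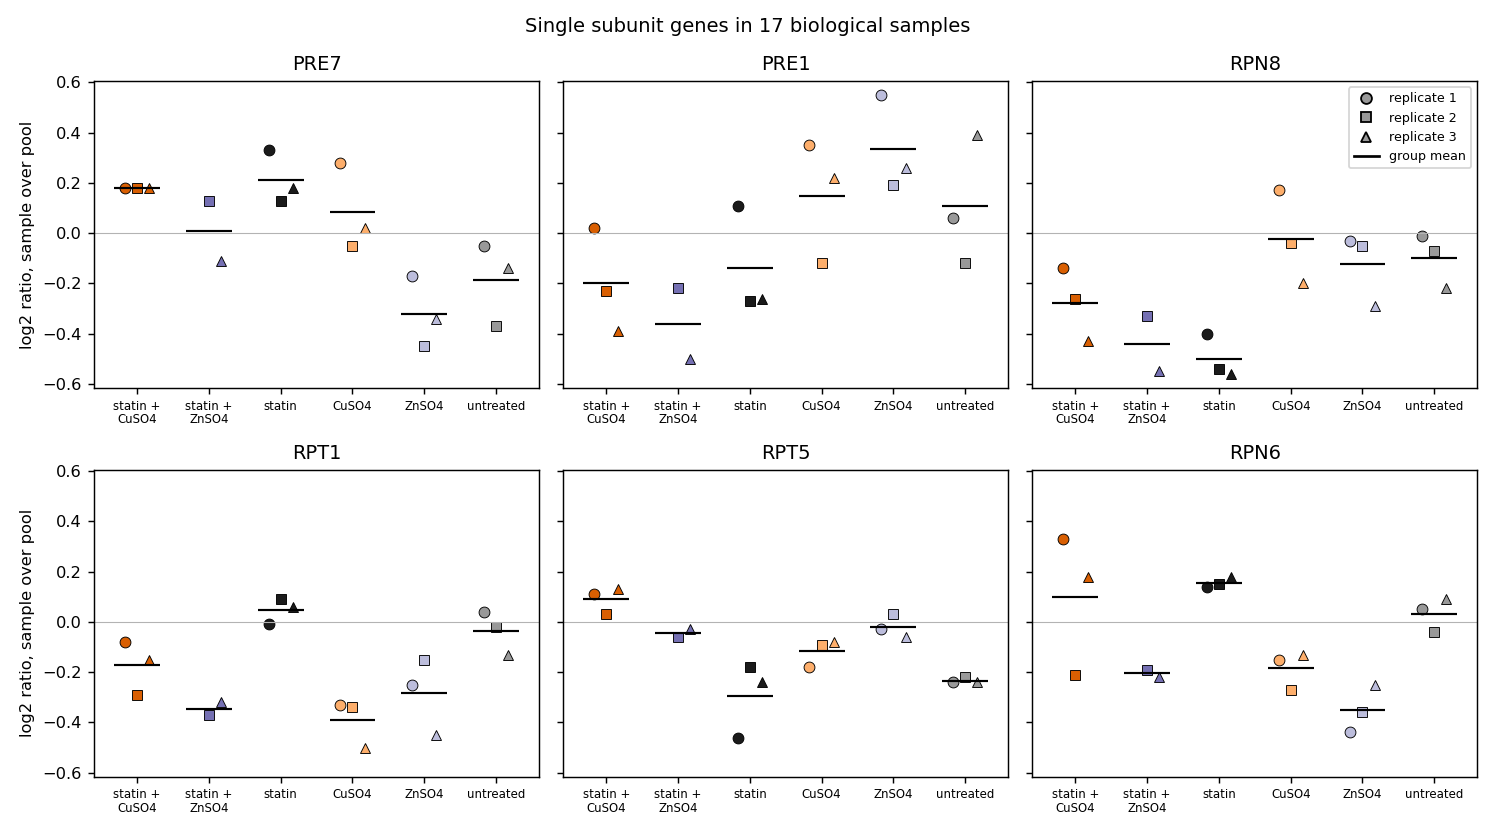
Log2 ratio over the reference pool in every sample, by group, for PRE7, PRE1, RPN8, RPT1, RPT5 and RPN6. PRE7 is higher (0.13 to 0.33) and RPN8 lower (-0.56 to -0.40) in the 3 samples of statin alone than in the untreated ones, and RPT5 has its lowest group mean in statin alone (samples -0.46 to -0.18).

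The metals alone called few subunit genes, and those called were lower. CuSO4 against untreated lowered 1 of the 33 genes, where 34.6% of all genes were called and 16.6% were lower, with a subunit median of -0.02 against -0.04 for all genes. RPT1, an ATPase of the base, measured -0.33, -0.34 and -0.50 in CuSO4, against 0.04, -0.02 and -0.13 in untreated cultures. All 3 CuSO4 samples were lower, by 0.35 ± 0.10 on average (1.28-fold, adjusted p = 0.0107). Under median centring the change was -0.24 with an adjusted p of 0.162. With the scan as a block 5 of the 33 were called, where 44.8% of all genes were: RPN4, RPT1 and SCL1, an alpha-ring gene, lower, and PRE7 and the base scaffold gene RPN1 higher.

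ZnSO4 against untreated lowered 2 of the 33 genes, where 16.6% of all genes were called and 7.78% were lower. RPN6 measured -0.44, -0.36 and -0.25 in ZnSO4, against 0.05, -0.04 and 0.09 in untreated cultures, and fell by 0.39 ± 0.11 on the log2 scale (adjusted p = 0.0302). RPN10, a ubiquitin receptor, measured -0.24, -0.20 and -0.02 in ZnSO4, against 0.19, 0.04 and 0.15 in untreated cultures, and fell by 0.28 ± 0.09 (adjusted p = 0.0427). In both genes the groups did not overlap. Both calls were lost when replicate 1 or 2 of ZnSO4 was left out (adjusted p = 0.117 or 0.0772 for RPN6 and 0.163 or 0.12 for RPN10), and when replicate 1 or 3 of untreated was (0.0895 or 0.0966, and 0.15 or 0.111). That on RPN10 was also lost with the deposited log ratios (0.0543) and when these groups were fitted alone (0.0997). With the scan as a block 4 were called, where 24.3% of all genes were, with PRE8 of the alpha ring higher (0.33) and RPN3 of the lid lower (-0.23) beside these. The subunit median was -0.04, against 0 for all genes.

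Added to the statin, CuSO4 raised 3 of the 33 genes and lowered 0, where 16.7% of all genes were called and 9.44% were higher. They were the base ATPase genes RPT5 and RPT3, and PRE4. RPT5 measured 0.11, 0.03 and 0.13 in statin with CuSO4, against -0.46, -0.18 and -0.24 in statin alone, and rose by 0.38 ± 0.08 (adjusted p = 0.00466). RPT3 measured 0.43, 0.25 and 0.30 in statin with CuSO4, against -0.06, 0.22 and -0.01 in statin alone, and rose by 0.27 ± 0.09 (adjusted p = 0.0479). The groups did not overlap in either gene. PRE4, at the values above in statin with CuSO4, measured -0.13, -0.15 and -0.15 in statin alone and rose by 0.32 ± 0.09 (adjusted p = 0.0273). The call on RPT5 held without any single sample (adjusted p up to 0.0285), while that on PRE4 was lost without any one sample (0.0628 to 0.119) other than replicate 2 of statin with CuSO4. That on RPT3 was lost without replicate 1 or 3 of either group (0.0924 to 0.191), and also with no background correction, under median centring, with the deposited log ratios, with no filter on dim probes or with first technical arrays only (0.0513 to 0.064). With only these groups in the fit none of the 3 passed (adjusted p = 0.0812, 0.14 and 0.222 for RPT5, PRE4 and RPT3). With the scan as a block 4 of the 33 were called, where 24.6% of all genes were, the added one being RPN8 (0.23, adjusted p = 0.0265). The median was 0.23 over the 6 ATPases and 0.05 over the 32 subunits, against 0.01 for all genes. Among the ATPases RPT1 went the other way, at -0.22, and was not called. Medians of the other parts of the complex are not given.

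Added to the statin, ZnSO4 lowered 1 of the 33 genes, where 22% of all genes were called and 10.3% were lower. RPT1 measured -0.37 and -0.32 in statin with ZnSO4, against -0.01, 0.09 and 0.06 in statin alone, and fell by 0.39 ± 0.11 on the log2 scale (adjusted p = 0.0175). It missed the threshold under median centring (adjusted p = 0.0591), when these groups were fitted alone (0.0546) and without either sample of statin with ZnSO4 (0.11 without replicate 2 and 0.0769 without replicate 3). The subunit median of -0.15 was the lowest of the comparisons made, with 24 of 32 subunits below 0, while the median of all genes was 0.01. It was -0.09 without replicate 3 of statin with ZnSO4 and -0.10 with the scan as a block. With the scan as a block 3 were called, where 28.1% of all genes were, all lower, the added ones being SCL1 (-0.25) and RPN6 (-0.34).

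The response of the 33 genes to the statin was not shown to depend on either metal. For the CuSO4 interaction limma called 0 of the 33, with 1 (RPT5, 0.27) at an unadjusted p under 0.05, where 18.4% of all genes were called and 30.5% passed the unadjusted rule. For the ZnSO4 interaction it called 0, with 1 (PRE8, -0.51) at an unadjusted p under 0.05, where 1.03% of all genes were called and 9.58% passed the unadjusted rule. The subunit medians were 0.12 and -0.06. The 95% interval lay within ±0.5 for 15 subunits in the CuSO4 interaction and 18 in the ZnSO4 interaction, and within ±1 for all 32 in both.

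**Figure D5:**
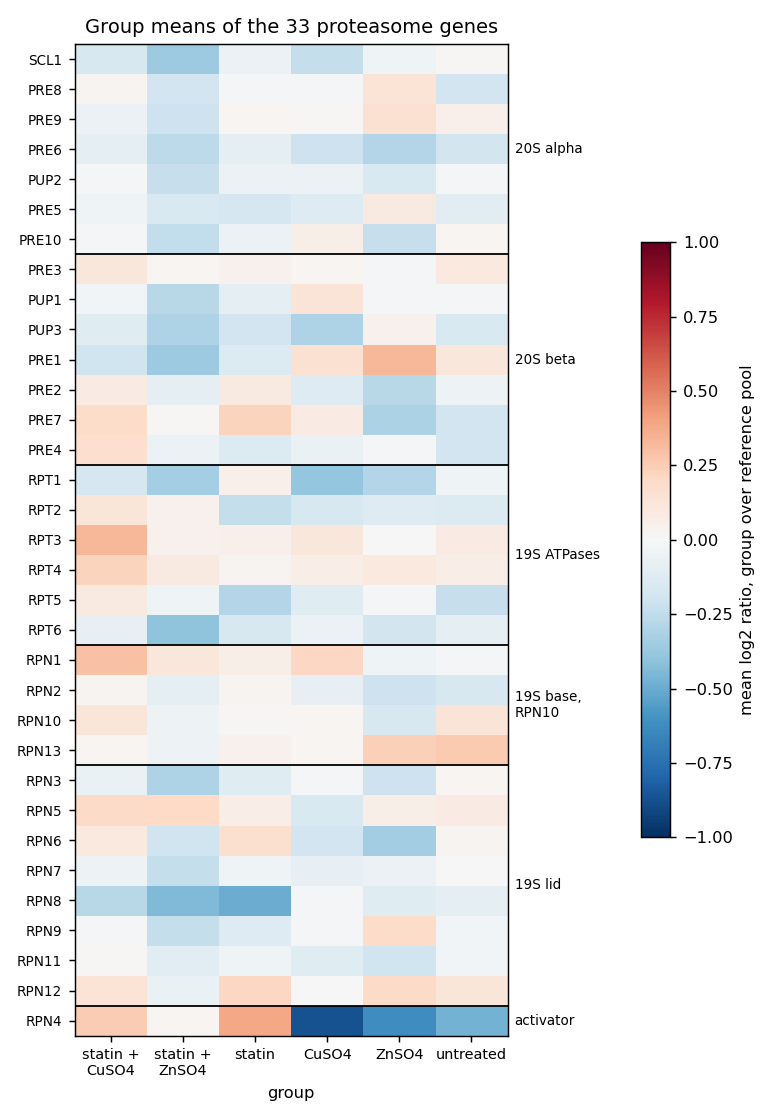
Mean log2 ratio over the reference pool in each of the 6 groups for RPN4 and the 32 subunits, ordered by place in the complex (20S is the core, 19S the cap), with red above and blue below the pool. RPN4 runs from 0.39 in statin to -0.87 in CuSO4, and among subunits PRE1 spans the widest range of group means, 0.69.

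Among genes that work with the proteasome, UBI4 and TMA17 had larger changes than any subunit. Of 14 genes for assembly chaperones and accessory factors, 1 rose and 1 fell in statin against untreated, where 36.8% of all genes were called. These were RPN14, a chaperone of the cap base (0.23 ± 0.08, adjusted p = 0.0347), and ADD66, a chaperone of core assembly (-0.49 ± 0.12, adjusted p = 0.00545). TMA17, a stress-responsive assembly chaperone of the base, measured 0.62, -0.37 and 0.15 in statin with CuSO4, against -1.20, -1.22 and -0.99 in CuSO4 alone. No sample overlapped, and the rise was 1.27 ± 0.19 (adjusted p = 0.000123). It was 0.65 (adjusted p = 0.0314) with ZnSO4 and 0.06 (adjusted p = 0.834) with neither metal, and CuSO4 alone against untreated changed it by -0.75 (adjusted p = 0.00602). In statin with CuSO4 against CuSO4, 2 of these 14 rose (TMA17 and NAS2) and 0 fell, where 44.3% of all genes were called.

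Among 14 genes for ubiquitin, its activation, the Cdc48 unfoldase and shuttle factors, 3 rose and 0 fell in statin against untreated, and 8 rose and 2 fell in statin with CuSO4 against CuSO4, with medians of 0.09 and 0.35 against -0.01 and 0.01 over all genes. In those comparisons 36.8% and 44.3% of all genes were called. UBI4, the stress-induced polyubiquitin gene, measured 0.79, 0.21 and 0.83 in statin with CuSO4 and 0.12 and 0.41 in statin with ZnSO4. It measured 0.51, 0.46 and 0.59 in statin alone, -1.06, -1.20 and -1.15 in CuSO4, -1.04, -0.97 and -1.12 in ZnSO4, and 0.00, 0.10 and -0.45 in untreated cultures. The 8 statin samples were thus the highest, the untreated ones intermediate and the metal samples without statin the lowest. The statin raised it by 1.75 ± 0.16 with CuSO4 (adjusted p = 1.45e-06), by 1.31 with ZnSO4 (9.22e-05) and by 0.64 with neither (0.00603). CuSO4 and ZnSO4 alone gave -1.02 (adjusted p = 0.000167) and -0.93 (0.000981). UBI4 repeats resemble the ubiquitin parts of other genes, so its probe may share signal with them. With a metal present, UBA1, the ubiquitin-activating enzyme, moved the other way. It changed by -0.28 ± 0.09 in statin with CuSO4 against CuSO4 (limma adjusted p = 0.0219). In statin with ZnSO4 against ZnSO4 it changed by -0.38 ± 0.10 (adjusted p = 0.0122). With neither metal its group means were 0.42 in statin and 0.42 in untreated cultures.

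The 3 genes of the ubiquitin ligases that act on Rpn4 protein were not called in statin against untreated, at 0.27 to 0.52. Of the 3, 2 had an unadjusted p under 0.05, a rule that 46.6% of all genes passed. In the averaged statin effect, where 56.1% of all genes were called, all 3 rose: UBR2 by 0.47 ± 0.14 (adjusted p = 0.00887), its partner MUB1 by 0.39 ± 0.10 (0.00364) and UBR1 by 0.31 ± 0.08 (0.00554). Of 4 factors known to act at the RPN4 promoter, PDR1, the drug-resistance regulator, measured 0.25, 0.04 and 0.19 in statin, against -0.25, -0.30 and -0.31 in untreated cultures. It rose by 0.45 ± 0.10 (adjusted p = 0.00206), while PDR3, YAP1 and HSF1 did not pass the test there, where 36.8% of all genes were called. In statin with CuSO4 against CuSO4, HSF1, the heat shock regulator, was the one of the 4 that passed (0.43, adjusted p = 0.0228), with overlapping samples. In that comparison 44.3% of all genes were called. Rpn4 protein was not measured, and transcript levels say nothing of its stability.

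The genes outside this set whose profile over the 17 samples was most like that of RPN4 were PEP12 (Pearson r = 0.965), IRS4 (0.964), CIN10 (0.962), YER158C (0.954) and YDR262W (0.95). Those most like the mean of the 32 subunits were GRE3 (0.805), MTG1 (0.785), YNL134C (0.781), PDR15 (0.758) and PXA1 (0.752). No gene was on both lists. The samples behind these values share the statin split and the scans.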

How the data were processed

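Two-colour Agilent arrays compared each yeast sample (Cy3) with a pool of all conditions (Cy5), with no dye swap, per the labels. Spot values came from Feature Extraction 10.5.1.1 (Agilent), as the submitters' processing notes name it. In the scanner files as deposited stand median spot and background intensity per channel, quality marks and a log10 ratio of red over green, per the file headers; the authors' deposited value table holds the same log10 ratio with its sign turned. The lowest correlation between arrays of different samples was r = -0.564; ratios were not turned, since the dyes are stated in the labels.

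Median intensities, used in place of the planned mean intensities, were corrected with normexp (offset 50) and loess-normalized within arrays. Control and outlier spots had weight 0. Ratios became log2 sample over pool, and spots and duplicate arrays were averaged. Genes whose spots were well above background throughout at least 1 group were tested (5606 genes, 650 left out). All 6 groups entered one limma 3.58.1 fit (R 4.3.3, package data.table version 1.17.8) with 11 residual degrees of freedom, two-sided, calling a Benjamini-Hochberg adjusted p under 0.05 over all tested genes. Values after ± are standard errors unless SD is written. The number of samples limits the precision. Where groups are said not to overlap, this is a description. Apart from the split of all statin samples from all others, the share of all genes without overlap is not given. The fit was also run on simulated data with independent noise in each sample and changes added to the statin group alone. That simulation held no deviation shared by same-numbered samples, so it cannot show how such sharing affects the calls.

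The 33 genes and the lists around them were chosen with earlier results of these data known. Named genes are RPN4, the 2 highest and 2 lowest subunits per comparison, and further called ones named after their values were seen. Gene names come from the R64 annotation table; the files use another build, so no coordinates are given. Alternatives were no background correction, median centring, the deposited log ratios, no filter on dim probes, first technical arrays only, only the groups compared, the replicate number (which equals the scan) as a block, and leaving out each sample. Same-numbered samples deviated together with r between -0.0901 and 0.688 (median 0.312, above 0.1 in 33 of 40 pairs). The number was read as a scan batch and not as a pairing. The main fit held no term for it, so its adjusted p values do not account for this shared deviation. The fit with the scan as a block takes out only a deviation common to all 6 groups, and counts that changed with it are given. The sharing was uneven. Between groups without statin r was 0.418 to 0.678, and between statin groups 0.165 to 0.688. Between a group with and a group without statin it was -0.0901 to 0.475. In comparisons with against without statin the block may therefore not account for the sharing. Promoter, protein and probe sequences were not used here.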

Additional observations from a re-analysis of the deposited data

Results flagged for a closer look

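The effect of the statin differed between cultures with CuSO4 and cultures with neither metal, by the interaction test of limma, for 5 of the 35 genes tested around the proteasome (14.3%), while 0 of the 32 subunit genes and RPN4 passed it. Over all genes 18.4% were called. TMA17 had an interaction of 1.21 ± 0.26 (adjusted p = 0.00437), which stayed between 0.97 and 1.46 when any sample was left out. UBI4 had 1.11 ± 0.23 (adjusted p = 0.00287), between 1.00 and 1.31 likewise. For HSM3, a base assembly chaperone, the interaction was 0.52 (adjusted p = 0.0332). For CDC48, the unfoldase, it was 0.55 (adjusted p = 0.0406), and under median centring 0.31 with an adjusted p of 0.411. For HUL5, a ligase bound to the proteasome, it was 0.44 (adjusted p = 0.0415). These last 3 calls were lost without replicate 1 of statin with CuSO4 (adjusted p = 0.0827, 0.101 and 0.117 for HSM3, CDC48 and HUL5) and without several other samples.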

How the results depend on the processing

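Counts below are called genes of the 33, with the percentage of all genes called by the same fit in parentheses. Median centring gave 0 (32.8%) for CuSO4 and 5 (16.5%) for ZnSO4 against untreated, 1 (42.6%) for statin with CuSO4 against CuSO4, 2 (24.6%) for statin with ZnSO4 against ZnSO4 and 6 (53.4%, with 2 higher and 4 lower, turning the balance) for the averaged statin effect. Its subunit medians were -0.11 for statin and -0.12 for ZnSO4 against untreated, 0.01 for statin with CuSO4 against CuSO4, and 0.03 for the ZnSO4 interaction. The deposited log ratios gave 1 (17%) for ZnSO4 and 4 (42%) for statin with CuSO4 against CuSO4. First technical arrays gave 2 (21.7%) for statin with ZnSO4 against statin and 2 (29.1%) against ZnSO4. With the replicate number as a block, counts were 5 (44.8%) for CuSO4 and 4 (24.3%) for ZnSO4 against untreated, 4 (24.6%) and 3 (28.1%) for CuSO4 and ZnSO4 added to statin, 8 (54.5%) and 6 (37%) for statin with CuSO4 and with ZnSO4 against that metal, and 9 (63.3%, with 4 higher and 5 lower) for the averaged effect. With only the groups compared they were 2 (35.6%) for CuSO4 and 1 (18%) for ZnSO4 against untreated, 0 (10.2%) and 0 (18.5%) for CuSO4 and ZnSO4 added to statin, and 1 (33.3%) and 3 (24.4%) for statin with CuSO4 and ZnSO4 against that metal. Single samples were then left out, except those of statin with ZnSO4, which had only 2. Against untreated this gave 2 to 3 (29.4 to 34%) for statin and 1 to 1 (26.3 to 32%) for CuSO4. ZnSO4 against untreated gave 0 to 3 (10.9 to 14.4%). Added to statin, CuSO4 gave 1 to 3 (12.1 to 17.1%) and ZnSO4 1 to 2 (14.6 to 21.8%). Against that metal, statin with CuSO4 gave 1 to 7 (33.5 to 49.4%) and statin with ZnSO4 0 to 4 (18.3 to 28.1%). Both interactions gave 0 (14.3 to 24.7% for CuSO4 and 0.499 to 1.75% for ZnSO4). The averaged effect gave 5 to 9 (52.1 to 58.2%). The 7 (49.4%) came without replicate 2 of statin with CuSO4, the 4 (28.1%) without replicate 3 of ZnSO4, and the averaged balance turned without replicate 2 of CuSO4 (8; 53.9%) or of untreated (9; 54.5%). RPN4 in statin with CuSO4 against statin ran from -0.35 to 0.11. The cause of these shifts was not tested. Most single-gene values, 801, kept their direction and side of the threshold, 97 lost a call, 25 gained one and 2 reversed.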
